A study of Danio rerio with 4 samples.

Results

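The annexins described here are 9 genes of the deposited zebrafish expression table, out of 19875. They were selected by name from a list of 10 annexin symbols that was drawn up with the mutant and wild-type values of these libraries already known. The selected rows are ANXA1, anxa1a, anxa1b, anxa1c, anxa2a, anxa3b, anxa4, anxa5b and anxa6. The listed gene anxa2b was not analysed here. Because the list was chosen on values of this very contrast, the differences between genotypes at the 9 genes are given as descriptions, with no test.

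Annexins are calcium-dependent proteins that bind negatively charged phospholipids on the cytosolic face of membranes, through a conserved core of repeats and a variable N-terminal tail. They take part in membrane repair, in vesicle traffic and in the links between membrane and cytoskeleton, and some are released from cells. In mammals, annexin A1 is induced by glucocorticoids and limits inflammation through formyl peptide receptors, and annexin A2 pairs with S100A10 and binds plasminogen at the cell surface. In the injured heart, annexins are studied in muscle membrane repair, in fibrosis and in the clearance of dying cells.

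Messenger RNA was sequenced from injured cardiac ventricles of zebrafish, with atrium and bulbus arteriosus removed, 4 days after cryoinjury (4 dpci in the labels). The ccn2a-/- ventricles gave 2 libraries and the wild-type ventricles 2. The product of ccn2a is a matrix-associated signalling protein that cells secrete. All animals were injured, the labels give neither the lesion of the mutant allele nor the stock, age or number of fish in a sample, and so the spread between replicates may be technical. Values are read counts that the authors divided by a factor for each library and rounded, called normalised counts here.

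Depth was about 18.8 and 18.1 M reads in ccn2a-/- replicates 1 and 2, and 17.2 and 21.5 M reads in wild-type replicates 1 and 2. Wild-type replicate 2 stood apart in the share of its values on the mitochondrial genome, which was 14.7% and 13.6% in ccn2a-/- replicates 1 and 2 against 13.4% and 7.66% in wild-type replicates 1 and 2. The ccn2a transcript (symbol ctgfa in the table) had 3070 and 1473 normalised counts in ccn2a-/- libraries, against 4737 and 4411 in wild-type libraries. Cardiomyocyte transcripts were present in every library. Of 11 listed cardiomyocyte markers, 9 had a row in the table. Their summed level was 1285427 to 1395022 in ccn2a-/- and 826307 to 1069206 in wild type, with no other tissue for comparison. With 2 libraries a group, an exact permutation test of a single gene cannot go below p = 0.333.

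ANXA1 stood apart from the rest of the family. This gene (ENSDARG00000098481, chromosome 5, 64994085 to 65004791, minus strand, as the table prints the coordinates) carries a symbol in capitals in the table, and the current symbol for its Ensembl ID is anxa1d. The current symbol of the gene called anxa1a here (ENSDARG00000026726) is in turn ANXA1. Here ANXA1 always means ENSDARG00000098481. That gene had 2 and 2 normalised counts in ccn2a-/- replicates 1 and 2, against 87 and 116 in wild-type replicates 1 and 2. Both mutant libraries were close to empty for ANXA1 and both wild-type libraries were not. The means were 2.0 ± 0.0 in ccn2a-/- and 101.5 ± 20.5 in wild type (SD, n = 2 each). On the log2(value + 1) scale this is a log2 fold change of -5.08 (SE 0.52, moderated over all tested genes by limma). The size depends on the pseudocount, at -3.91 with 5 and -5.34 with 0.5, and the gene passed the filter on low values through its wild-type libraries.

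Translated back to reads, ANXA1 rested on about 2 and 2 reads in ccn2a-/- and about 83 and 153 reads in wild type. On these approximate reads the level in wild type was 47.3-fold that in ccn2a-/-. The 95% exact interval of 18.2 to 175 pools the 2 libraries of each genotype and covers counting error only. Because the gene was listed with these values known, the interval is a description and no test of genotype. At this depth ANXA1 was therefore detected in the mutants by 4 reads in all.

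**Figure D1:**
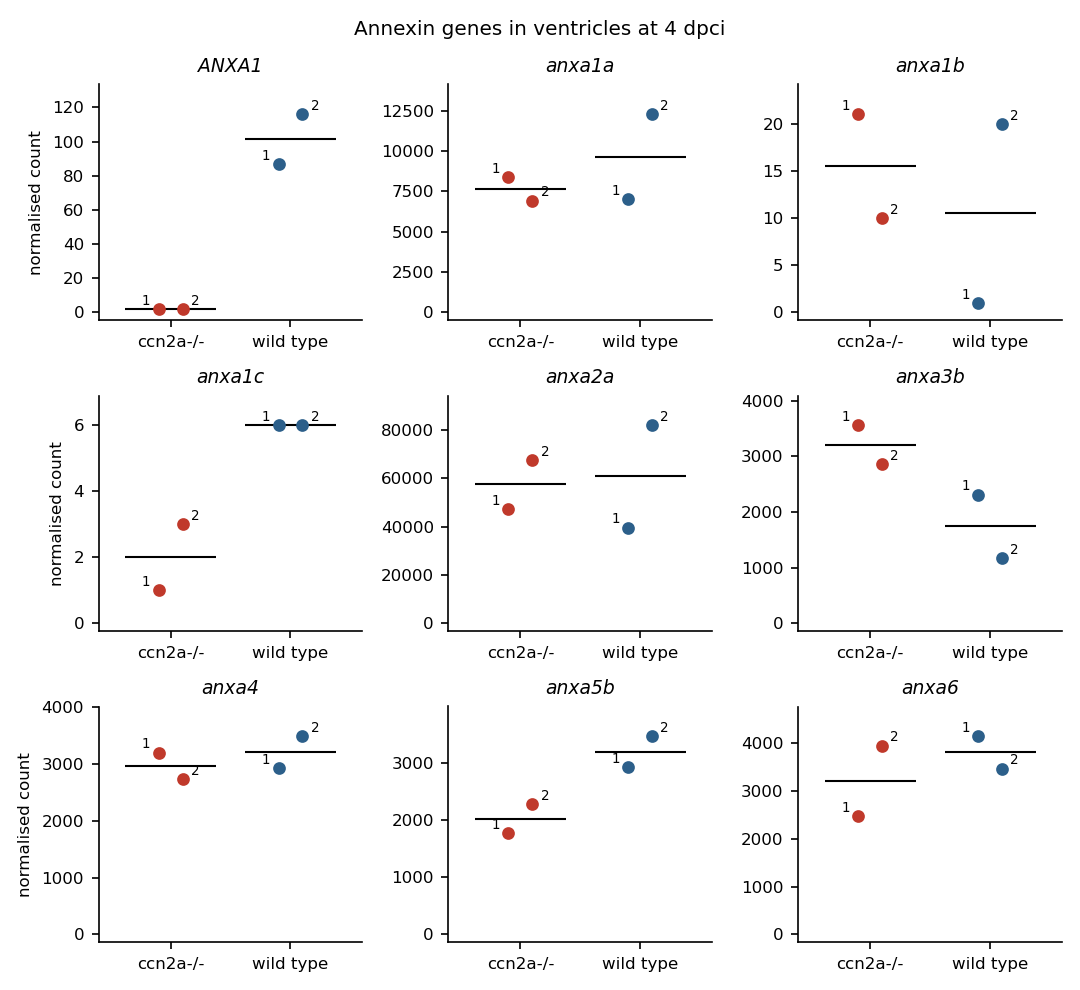
Normalised counts of the 9 annexin genes in the ccn2a-/- libraries (red, left) and the wild-type libraries (blue, right), with the replicate number beside each point and the mean of each genotype as a line. The y axis differs between panels. The mutant libraries sit below both wild-type libraries for ANXA1, anxa1c and anxa5b and above both for anxa3b, and the genotypes overlap for the other 5 genes.

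ANXA1 is the first gene of a tandem cluster on chromosome 5, all on the minus strand. The gene anxa1c (65009764 to 65021736) lies 4.97 kb further along the chromosome, and anxa1b (65022287 to 65037525) follows anxa1c after 0.55 kb. Reads from close copies like these can be split or dropped in counting, so their separate values are uncertain. The gene anxa1c had 1 and 3 normalised counts in ccn2a-/- against 6 and 6 in wild type. That is a level near the floor, with a 95% exact counting interval of 0.881 to 11.7 for the ratio of wild type to mutant, and with a mean of 4.0 it did not enter the fit over all genes. The gene anxa1b had 21 and 10 in ccn2a-/- against 1 and 20 in wild type. The low library was wild-type replicate 1, so the genotypes overlapped, and the log2 fold change of 1.26 (SE 1.19) became -0.43 without it. Summed over the 3 genes of the cluster, the normalised count was 24 and 15 in ccn2a-/- against 94 and 142 in wild type, and ANXA1 made up most of the wild-type sum.

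The genes beside the cluster did not share the low mutant level of ANXA1. On the side of lower coordinates, ptgs1, which encodes a cyclooxygenase, had 734 and 725 in ccn2a-/- against 508 and 520 in wild type (limma, adjusted p = 0.381). On the other side, the mitochondrial processing peptidase gene pmpca had 928 and 873 in ccn2a-/- against 976 and 910 in wild type (adjusted p = 0.88). The inositol phosphatase gene inpp5e had 157 and 169 against 148 and 192 (adjusted p = 0.945). ZBTB26 had 69 and 68 in ccn2a-/- against 51 and 38 in wild type, and zgc:101858 had 279 and 208 against 253 and 281. ptgs1 and ZBTB26 were higher in both mutants and the other 3 overlapped between the genotypes, and none passed the adjusted threshold of 0.05. Over all tested genes, 26.6% were higher in both mutants without overlap.

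**Figure D2:**
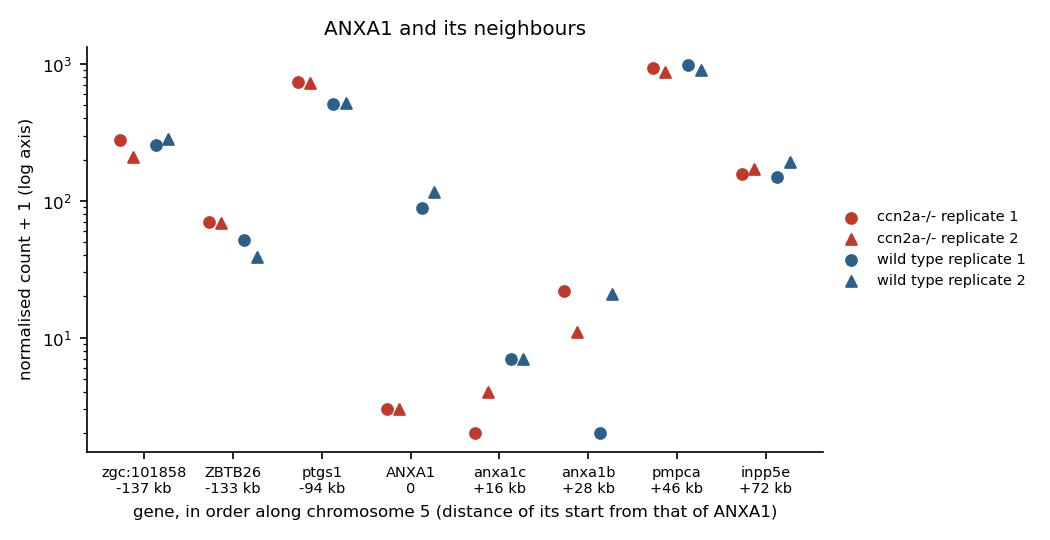
Normalised count plus 1 (log axis) of ANXA1, anxa1c, anxa1b and the tested genes nearest to ANXA1, in their order on chromosome 5, in ccn2a-/- (red) and wild-type (blue) libraries. ANXA1 is near the floor in both mutants and at 87 and 116 in wild type, while pmpca and inpp5e are at like levels in all 4 libraries.

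The fourth annexin A1 gene, anxa1a (ENSDARG00000026726), lies apart from the cluster on chromosome 5, at 25578181 to 25583325. It had 8372 and 6923 normalised counts in ccn2a-/- against 7038 and 12272 in wild type. Wild-type replicate 2 was high and the other 3 libraries lay close together. The mean was 7648 ± 1025 in ccn2a-/- and 9655 ± 3701 in wild type (SD, n = 2 each), a log2 fold change of -0.29 (SE 0.31) that turned to 0.11 without wild-type replicate 2.

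The annexin A2 gene anxa2a (ENSDARG00000003216, chromosome 25, 34013093 to 34027440) varied more within each genotype than between them. It had 47470 and 67683 normalised counts in ccn2a-/- against 39683 and 82041 in wild type. Replicate 2 was the higher library in both genotypes, 1.43-fold above replicate 1 in ccn2a-/- and 2.07-fold above it in wild type. The means were 57577 ± 14293 in ccn2a-/- and 60862 ± 29952 in wild type (SD, n = 2 each). This gave a log2 fold change of -0.01 (SE 0.44), which was -0.53 without wild-type replicate 1 and 0.51 without wild-type replicate 2.

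The annexin A5 gene anxa5b was lower in both mutants. Annexin A5 binds phosphatidylserine and is used to stain dying cells. This gene (ENSDARG00000016470, chromosome 1, 22654875 to 22665098) had 1782 and 2278 normalised counts in ccn2a-/- against 2928 and 3473 in wild type. Both mutant libraries lay below both wild-type libraries, at 2030 ± 351 in ccn2a-/- and 3201 ± 385 in wild type (SD, n = 2 each). Its log2 fold change of -0.66 (SE 0.22), or 1.58-fold higher in wild type, ranged from -0.84 to -0.49 with 1 library left out.

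The annexin A3 gene anxa3b was the one member higher in both mutants. In mammals annexin A3 is abundant in neutrophils. The gene (ENSDARG00000044254, chromosome 10, 9247593 to 9269733) had 3559 and 2858 normalised counts in ccn2a-/- against 2315 and 1174 in wild type. Wild-type replicate 2 was the lowest and ccn2a-/- replicate 1 the highest. The mean was 3209 ± 496 in ccn2a-/- and 1745 ± 807 in wild type (SD, n = 2 each). The log2 fold change of 0.95 (SE 0.35), or 1.93-fold, was 0.46 to 1.44 with 1 library left out. Of 10 neutrophil markers tested, 4 were higher and 6 lower in ccn2a-/-. Without overlap, 0 were higher and 4 lower, beside 26.6% higher and 25.7% lower over all tested genes. The summed level of the markers found was 9509 and 10399 in ccn2a-/- against 9781 and 8615 in wild type. Of this sum, srgn alone made 5874 and 6949 against 6047 and 4296.

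Annexins A4 and A6 overlapped between the genotypes. Annexin A6 has a duplicated core and is found at the membrane of muscle cells, and annexin A4 is best known from epithelia. The gene anxa4 (chromosome 10, 41159241 to 41192881) had 3200 and 2728 normalised counts in ccn2a-/- against 2923 and 3489 in wild type, a log2 fold change of -0.11 (SE 0.20). The gene anxa6 (chromosome 14, 49251331 to 49360686) had 2473 and 3950 in ccn2a-/- against 4146 and 3470 in wild type, a log2 fold change of -0.28 (SE 0.27). Its low library was ccn2a-/- replicate 1, and without it the log2 fold change was 0.06.

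Of the 9 genes, the groups did not overlap at 4: the mutants were below wild type at 3 (ANXA1, anxa1c, anxa5b) and above it at 1 (anxa3b). Of the 8 with a mean of 10 or more, 2 were lower and 1 higher without overlap, beside 25.7% lower and 26.6% higher among the 16730 genes tested. Since the list was drawn up with these values known, nothing is read from those shares. The SD between replicates on the log2 scale ran from 0.17 for anxa4 to 1.77 for anxa1b, beside a median of 0.28 over all tested genes. In whole ventricles, fewer cells of a type and less RNA per cell cannot be told apart, and levels are not compared between genes because transcript lengths were not used here.

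**Figure D3:**
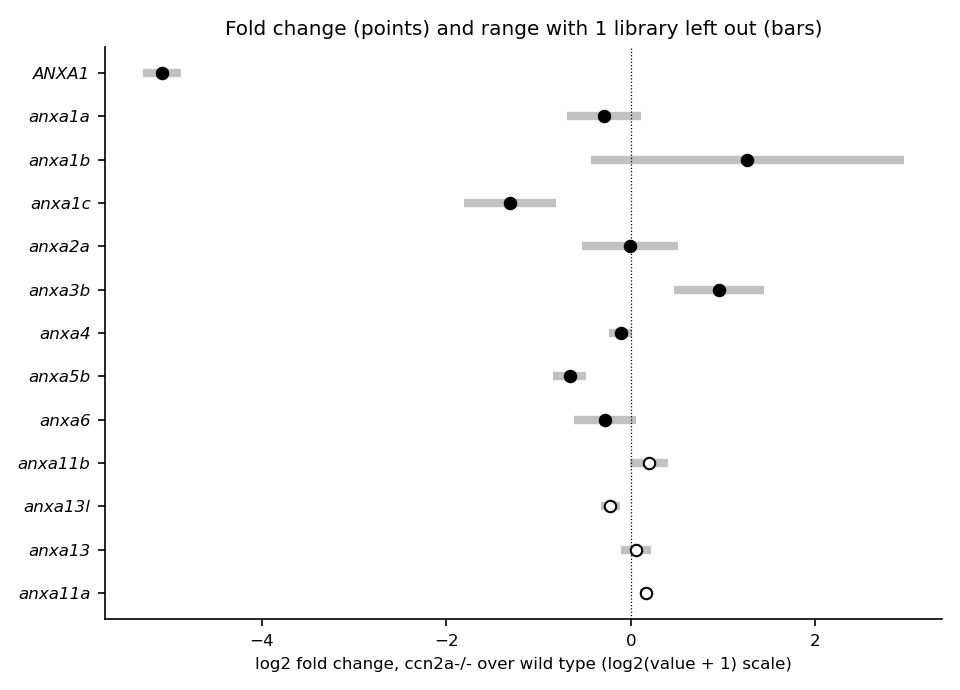
Log2 fold change of ccn2a-/- over wild type for the 9 annexin genes (filled points) and 4 further annexin genes (open points), with the range obtained by leaving out each library in turn (grey bars). The bar of ANXA1 stays between -5.29 and -4.87, those of anxa5b, anxa1c and anxa3b keep to one side of 0, and that of anxa1b runs from -0.43 to 2.96. Where the genotypes do not overlap, as at ANXA1, anxa5b, anxa1c and anxa3b, the bar cannot cross 0.

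The table holds 4 further annexin genes: anxa11a, anxa11b, anxa13 and anxa13l. Together the 13 annexins of the table are among 17 annexin symbols in a RefSeq gene table, and the other 4 were not analysed here. The 4 further genes were tested, although they too were left off the list with their values known. None passed an adjusted p of 0.05 with limma, and 0 of 4 had an unadjusted p under 0.05. The share of all 16730 genes that passed was 0%, with a smallest adjusted p of 0.207. Annexin A11 has a long N-terminal tail that ties RNA granules to lysosomes in mammals. The gene anxa11a had 2911 and 2901 normalised counts in ccn2a-/- against 2713 and 2491 in wild type (log2 fold change 0.16, adjusted p = 0.668), and its sign turned to -0.02 when libraries were rescaled to their total outside the mitochondrial genome. The gene anxa11b had 4449 and 3763 in ccn2a-/- against 4110 and 3106 in wild type (adjusted p = 0.676). The gene anxa13 had 4680 and 5873 in ccn2a-/- against 5659 and 4498 in wild type (adjusted p = 0.92). The low gene anxa13l had 30 and 35 in ccn2a-/- against 36 and 40 in wild type (adjusted p = 0.801).

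Partners of annexins were read from lists of related genes. No gene of the 6 lists passed an adjusted p of 0.05 (limma), so their members are described by direction, beside a median log2 fold change of 0.0001 over all tested genes. At an unadjusted p under 0.05, 6.93% of all tested genes were lower and 5.89% were higher in ccn2a-/-. S100 proteins are small calcium-binding partners of annexins. Of 9 S100 genes tested, 8 were lower and 1 higher in ccn2a-/- (median -0.20), with 0 at an unadjusted p under 0.05. Under quantile normalisation 5 were lower and 4 higher (median -0.28). The split was 6 lower and 3 higher without ccn2a-/- replicate 2 or without wild-type replicate 1, and the median was -0.39 without ccn2a-/- replicate 1 and -0.13 without wild-type replicate 1. The gene s100a10b, a homologue of the annexin A2 partner, had 11611 and 13003 in ccn2a-/- against 15384 and 18970 in wild type (log2 fold change -0.48, adjusted p = 0.403). Its relative s100a10a, named after its values were seen, overlapped between the genotypes, at 145 and 107 against 132 and 130 (limma, adjusted p = 0.92). The gene s100w had 165 and 207 against 251 and 297 (adjusted p = 0.397), and icn, an ictacalcin, had 11563 and 9536 against 12043 and 13687 (adjusted p = 0.538). For s100a10b, s100w and icn, the 3 genes with the smallest p in the list, both mutant libraries lay below both wild-type libraries. These 3 genes lie close together on chromosome 16, between 23397785 and 23432552. Over the list, 4 of 9 were lower without overlap and 0 higher, beside 25.7% lower and 26.6% higher over all tested genes.

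Membrane repair genes lay mostly on the lower side. Of 21 tested, 15 were lower and 6 higher in ccn2a-/- (median -0.33), with 3 lower and 1 higher at an unadjusted p under 0.05. When libraries were rescaled to their total outside the mitochondrial genome, which moved the median log2 fold change of all genes to -0.18, 18 were lower and 3 higher. The median of the list was -0.18 without ccn2a-/- replicate 1 and -0.16 without wild-type replicate 2, with 0 genes at an unadjusted p under 0.05 in either case. With all libraries, 11 of the 21 were lower without overlap and 2 higher, beside 25.7% lower and 26.6% higher over all tested genes. The ferlin gene myof had 487 and 623 in ccn2a-/- against 894 and 1785 in wild type (log2 fold change -1.20, limma, adjusted p = 0.381). Its relative myofl had 1160 and 1173 against 1559 and 3163 (adjusted p = 0.381). The dysferlin gene dysf, which is named beside the rule because annexins act with dysferlin in muscle, had 1087 and 1793 in ccn2a-/- against 1913 and 1867 in wild type (adjusted p = 0.464). The caveolar coat gene cavin4b lay on the higher side, at 82 and 115 against 50 and 20 (adjusted p = 0.381). Its relatives cavin1b and cavin1a, named after their values were seen, lay on the lower side. The gene cavin1b had 932 and 1869 in ccn2a-/- against 2147 and 4073 in wild type (adjusted p = 0.381). The gene cavin1a had 69 and 240 against 275 and 359 (adjusted p = 0.394).

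Genes of plasminogen activation were higher at 4 of 5 tested (median 0.10), but at 1 of 5 after the rescaling outside the mitochondrial genome and at 2 of 5 without ccn2a-/- replicate 1 or without wild-type replicate 1. The activator genes plat and plaua overlapped between the genotypes, with 269 and 184 for plat in ccn2a-/- against 222 and 408 in wild type, and 622 and 492 for plaua against 364 and 734 (adjusted p = 0.571 for plat and 0.911 for plaua, limma).

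Eicosanoid and resolution genes were lower at 10 of 16 (median -0.17), with 3 higher and 2 lower at an unadjusted p under 0.05. The median was -0.03 without ccn2a-/- replicate 2, -0.11 without ccn2a-/- replicate 1, -0.09 without wild-type replicate 1 and -0.35 after the rescaling outside the mitochondrial genome. Without ccn2a-/- replicate 1, wild-type replicate 1 or wild-type replicate 2, the genes at an unadjusted p under 0.05 numbered 1, 2 and 0. The formyl peptide receptor gene fpr1, named after its values were seen, had 142 and 152 in ccn2a-/- against 210 and 255 in wild type (log2 fold change -0.65, adjusted p = 0.386). The lipoxygenase genes alox5b.2 and alox5b.3, close relatives whose reads counting can split, lay on opposite sides. The gene alox5b.2 had 0 and 13 in ccn2a-/- against 79 and 146 in wild type, and alox5b.3 had 117 and 75 against 42 and 26 (adjusted p = 0.381 for both). The phospholipase A2 gene pla2g4ab had 420 and 247 in ccn2a-/- against 148 and 134 in wild type (adjusted p = 0.381).

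Genes that expose or clear phosphatidylserine were higher at 10 of 17 (median 0.10), with 2 higher and 0 lower at an unadjusted p under 0.05. After the rescaling outside the mitochondrial genome 7 were higher and 10 lower. The median was 0.21 without wild-type replicate 1, and 0 genes had an unadjusted p under 0.05 without ccn2a-/- replicate 1 or without wild-type replicate 2. The bridging ligand genes gas6 and pros1 were the ones with the smallest p: gas6 had 2872 and 2139 in ccn2a-/- against 1549 and 1364 in wild type, and pros1 had 3193 and 1752 against 1288 and 1409 (adjusted p = 0.381 for both). The engulfment gene elmo2 had 72 and 74 in ccn2a-/- against 49 and 39 in wild type (adjusted p = 0.402).

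Genes of the glucocorticoid response list, which also holds steroid dehydrogenase genes, were higher at 12 of 13 (median 0.39). Of these 13, 3 were higher and 0 lower at an unadjusted p under 0.05 (limma). The groups did not overlap at 7, all higher in ccn2a-/-, beside 26.6% higher over all tested genes. The median was 0.21 after the rescaling outside the mitochondrial genome and 0.30 without wild-type replicate 2. It was 0.50 and 0.52 without ccn2a-/- replicates 1 and 2. The steroid dehydrogenase gene hsd11b2 had 9747 and 8774 in ccn2a-/- against 4142 and 2984 in wild type (log2 fold change 1.39, adjusted p = 0.381). The gene hsd20b2 had 35 and 33 against 11 and 9, and the phosphatase gene dusp1 had 3900 and 3105 against 2394 and 1554 (adjusted p = 0.381 for both). The genes nr3c1, txnipa, tsc22d3 and cebpd, named after their values were seen, were also higher in both mutants (limma, adjusted p = 0.427 to 0.491). Of these, tsc22d3 had 4977 and 4671 in ccn2a-/- against 4080 and 3905 in wild type. Other genes of the list overlapped between the genotypes, among them sgk1, klf9, per1a, per1b and fkbp5. The gene fkbp5 had 6200 and 14157 in ccn2a-/- against 7991 and 7690 in wild type (limma, adjusted p = 0.76). Of the 4 annexin A1 genes described above, anxa1a and anxa1b overlapped between the genotypes, and ANXA1 and the near-floor anxa1c were lower in ccn2a-/-.

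**Figure D4:**
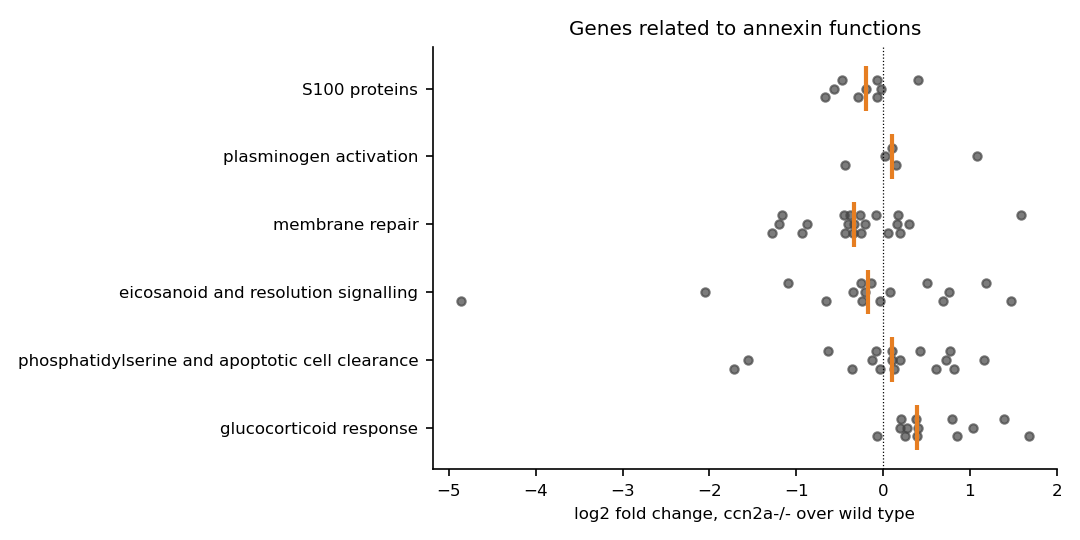
Log2 fold change of ccn2a-/- over wild type for each tested gene of 6 lists related to annexin functions (grey points, offset vertically for legibility), with the median of each list as an orange line. The medians run from -0.33 for membrane repair to 0.39 for the glucocorticoid response.

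Summed levels of cell type markers varied between the libraries, and their part in the annexin values was not tested. Epithelial markers were lower at 5 of 8 tested (median -0.49), with a summed level of 9031 and 8349 in ccn2a-/- against 9672 and 14273 in wild type. Among them epcam had 8 and 6 in ccn2a-/- against 21 and 42 in wild type, krt4 had 4770 and 6624 against 7721 and 10791, and agr1 was at 0 in 3 libraries. Without overlap, 3 of 8 were lower and 2 higher, beside 25.7% lower and 26.6% higher over all tested genes. The 2 higher were tp63 and cldni. The gene tp63 had 273 and 200 in ccn2a-/- against 185 and 199 in wild type, and cldni had 25 and 37 against 21 and 23. Wild-type replicate 2 was the highest library for the summed epithelial markers and for ANXA1, anxa1a, anxa2a, anxa4 and anxa5b. It was also the highest for the summed levels of the bulbus, pancreas, liver, lymphocyte, S100, membrane repair and eicosanoid lists. In that library tfa alone made 8096 of the liver sum of 8111, and ccr9a made 854 of the lymphocyte sum of 1167. The other liver genes found were highest in ccn2a-/- replicate 1. The lymphocyte genes zap70, il2rb, ccl38.6 and lck were lowest in wild-type replicate 2. Fibroblast markers were lower at 6 of 9, with a summed level of 296939 and 173842 in ccn2a-/- against 214542 and 269627 in wild type. Macrophage markers were lower at 8 of 10, with a summed level of 33342 and 25687 against 34719 and 25878. Of this sum, cd74a, which was higher in the mutants, made 19483 and 10582 against 10353 and 4794. Without overlap, 7 of the 10 macrophage markers were lower and 1 higher, beside 25.7% lower and 26.6% higher over all tested genes. Bulbus smooth muscle markers were lower at 4 of 6, with 12397 and 10490 in ccn2a-/- against 12444 and 15009 in wild type. Exocrine pancreas markers summed to 403 and 324 in ccn2a-/- against 891 and 1378 in wild type, of which ctrb1 alone made 98 and 82 against 704 and 1179, while 4 of the 6 tested were higher in the mutants.

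Markers of the remaining cell types gave further counts. All 10 endothelial markers tested were higher in ccn2a-/-, as were 9 of 10 erythrocyte and 8 of 8 thrombocyte markers, and 8 of 10 cardiomyocyte markers. Without overlap, 9 endothelial, 9 erythrocyte, 4 thrombocyte and 7 cardiomyocyte markers were higher, and 1 cardiomyocyte marker was lower. Over all tested genes, 26.6% were higher and 25.7% lower without overlap. Epicardial markers were higher at 4 of 9 and lymphocyte markers at 4 of 7. Of the liver and intestine markers, 2 each were tested, with 1 higher and 1 lower in both lists. No marker passed an adjusted p of 0.05 (limma). At an unadjusted p under 0.05 (limma), 5 endothelial, 5 erythrocyte, 1 epicardial, 1 thrombocyte and 1 pancreas marker were higher in ccn2a-/-. On the lower side were 4 macrophage, 2 epithelial, 2 bulbus, 1 fibroblast, 1 neutrophil, 1 lymphocyte and 1 pancreas marker. Over all tested genes, 5.89% were higher and 6.93% lower at that threshold.

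Likeness of pattern was measured as the Euclidean distance between deviations from each gene's own mean log2 value over the 4 libraries. Nearest to ANXA1 among 13022 genes with a mean of 50 or more was the unconventional myosin gene myo15b, at 7 and 8 in ccn2a-/- against 120 and 167 in wild type (distance 1.02). After it came si:ch73-343l4.8, si:rp71-36a1.3, ctrb1 and CR936442.1, at distances up to 1.88. The gene si:rp71-36a1.3 had 1 and 3 in ccn2a-/- against 205 and 342 in wild type. Nearest to anxa2a were TTC9 (54 and 72 in ccn2a-/- against 41 and 91 in wild type, distance 0.10), enpep, tnk1, haao and CHST13, at distances up to 0.23. With 4 libraries, close patterns arise among many genes, and these names are a description.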

How the data were processed

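Stranded poly(A) libraries were made from total RNA, per the labels' protocols. STAR 2.4.0a, featureCounts 1.4.5-p1 and DESeq2 1.6.2 are named, without settings, in the submitters' processing notes, with build GRCz10. The table's largest coordinate on chromosome 4 is 78048911, and the build of the coordinates, which are copied from the table, is unsettled. The deposited score of a gene is a read count that the authors divided by a size factor and rounded, judging from the values: low values fall on a regular spacing, which gave factors of 0.874 and 0.946 for ccn2a-/- and 0.952 and 1.32 for wild type. Value times factor gave approximate reads. Whole reads cannot be recovered at the factor above 1, so no count test was run.

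The test was limma 3.58.1 with a mean-variance trend, in R 4.3.3, on log2(value + 1), which understates changes of low genes. Genotype was the one term, in the 16730 genes whose 4 values average at least 10, with 2-sided Benjamini-Hochberg p-values over all genes and a threshold of 0.05. The fit was tested on simulated data. Printed SEs are the moderated ones of this fit, which borrow from the spread over all tested genes. Counting intervals are exact binomial (95%), on approximate reads pooled over the 2 libraries of a genotype, and serve as descriptions. The named genes were the annexins, up to 3 genes of smallest p in each list, the 3 tested genes nearest on each side of ANXA1 and the 5 genes nearest in pattern to ANXA1 and to anxa2a. Some further list genes were named beside this rule. List genes that add nothing to the account are not printed, and an item that the rule named is left out. The members and lists were chosen with earlier results of these data known. Symbols were matched as in the table. Alternatives were other pseudocounts, filters, scalings and variance models, a block for the sample number, and leaving out each library. Gene IDs were matched to current symbols with a names table. Figures were drawn with matplotlib 3.10.9.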

Additional observations from a re-analysis of the deposited data

How the results depend on the processing

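Over 12 alternative settings, the log2 fold change kept its sign at ANXA1 (-5.34 to -3.91), anxa1c (-1.81 to -0.67), anxa5b (-0.84 to -0.49) and anxa3b (0.46 to 1.44). It also did at anxa13l (-0.40 to -0.02), a gene outside the list. The genotypes did not overlap at any of these genes, so no left-out library or pseudocount could turn the sign. Filters, the block and the variance model leave the fold change as it is, so only the scalings could have turned it. The range of ANXA1 follows the pseudocount, at -3.91 with 5 and -5.34 with 0.5. Rescaling to the total outside the mitochondrial genome moved the median of all genes by -0.18 and turned anxa11a to -0.0201 and anxa13 to -0.13, which quantile normalisation turned to -0.09. The signs of anxa1a, anxa1b, anxa2a, anxa4, anxa6, anxa11b and anxa13 turned without 1 library or more. With all 4 libraries, the count of genes passing over the whole table was 2 under limma without trend and 0 under every other setting. No annexin outside the list and no gene of the related lists passed under any of these. The marker lists were not followed over the settings. With 1 library left out, the count at an unadjusted p under 0.05, 2145 with all libraries, was 448 to 2597 (448 without wild-type replicate 2, 648 without ccn2a-/- replicate 1). The members whose genotypes did not overlap were 6 to 7, against 4 with all libraries, and the genes without overlap were 11841 to 13357, against 8753, as fewer libraries make overlap rarer. With all 4 libraries, the members without overlap were 6 under quantile normalisation and 5 after the rescaling, against 4 under the main setting. The genes without overlap were then 8586 and 9111. Same-numbered libraries share only a number (correlation of deviations 0.0041), and with the replicate block 0 genes passed and 2655 had an unadjusted p under 0.05. Of the related lists, the median kept its sign in all settings for S100, membrane repair, eicosanoid and glucocorticoid genes, and not for plasminogen activation or phosphatidylserine genes. Members at 1 to 21 normalised counts are limited by depth.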
